A study of Rattus norvegicus with 9 samples.

Results

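The mitochondrial ribosome and protein import genes are those whose rat symbols begin with Mrpl or Mrps (proteins of the large and small subunits of the mitochondrial ribosome), Timm (translocase of the inner membrane) or Tomm (translocase of the outer membrane), each followed by a digit. A probe set, the group of short probes that reports 1 transcript on an Affymetrix array, was a member if its annotation gave 1 gene symbol and that symbol had this form. Of 31042 probe sets, 129 qualified, and they represent 96 of the 14217 genes that the array annotation names singly. The large subunit has 58 probe sets of 46 genes, the small subunit 39 of 27, the inner-membrane import genes 19 of 14 and the outer-membrane import genes 13 of 9. The rule reads the symbol alone. The subunit classes follow the symbols too and were not checked against the place of each protein in the ribosome.

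The ventral part of the spinal cord was taken from rats at embryonic day 14, and its RNA was read on 9 arrays, each carrying a pool of 5 embryos. Of these, 4 pools carried mutant human SOD1 with the G93R change (labelled Roth), 4 carried wild-type human SOD1 (labelled Chan), and 1 pool, labelled SDneg, is the negative control. SOD1 is the copper-zinc superoxide dismutase of the cytosol and the space between the mitochondrial membranes, and some of its mutations cause inherited amyotrophic lateral sclerosis. Each transgene comes under 1 line label, so the mutation, the line and the place of insertion cannot be told apart; the sources used here give neither the promoter nor the transgene dose. The negative control's description names it a negative control and also speaks of positive embryos; it was kept as the negative control. Replicates 2 to 4 of both transgenic groups carry an unexplained tag, le2, which replicate 1 of each group and the control do not have. Replicates are pools, so p-values measure the spread between pools.

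The mitochondrial ribosome translates the few proteins encoded by mitochondrial DNA, which are core subunits of oxidative phosphorylation. All of its proteins, like nearly all mitochondrial proteins, are encoded in the nucleus, made in the cytosol and brought in through the outer-membrane TOM complex and the inner-membrane TIM23 and TIM22 complexes, with small TIM chaperones guiding proteins between the membranes. Growing neurons depend on these systems to build mitochondria for the soma and the axon. Transcription of such genes is known to be driven in part by NRF1, by ETS-family factors such as GABP, and by YY1.

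Sequences are shown first for 5 members that are described in detail below and have a motif match near their start. RefSeq promoter sequences of the rat assembly GRCr8, 250 bases before to 50 bases after each gene's start, were found for 80 of the 96 genes. The 120 bases just before the start are printed 5′ to 3′ on the gene's strand, with matches in capitals. Capitals mark the NRF1 motif (GCGCA, any base, GCGC) or the ETS motif (CCGGAAG), searched on both strands, so that CTTCCGG is an ETS match on the other strand.

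Mrpl52: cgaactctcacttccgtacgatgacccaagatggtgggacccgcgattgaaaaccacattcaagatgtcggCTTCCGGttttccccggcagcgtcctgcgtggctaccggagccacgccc

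Mrpl53: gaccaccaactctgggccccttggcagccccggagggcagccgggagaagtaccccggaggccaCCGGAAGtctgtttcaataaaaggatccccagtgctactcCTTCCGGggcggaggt

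Mrpl27: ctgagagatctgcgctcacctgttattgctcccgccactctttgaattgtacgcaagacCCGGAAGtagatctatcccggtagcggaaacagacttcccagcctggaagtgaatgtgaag

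Mrps18b: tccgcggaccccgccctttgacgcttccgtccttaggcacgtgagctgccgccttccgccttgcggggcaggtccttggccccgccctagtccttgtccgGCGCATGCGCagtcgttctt

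Tomm7: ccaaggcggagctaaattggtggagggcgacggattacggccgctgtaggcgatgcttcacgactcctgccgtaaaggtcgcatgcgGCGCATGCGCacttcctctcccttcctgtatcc

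Mrpl52, Mrpl53 and Mrpl27, all of the large subunit, carry ETS matches, at chr15:31852816-31852935, chr4:117172923-117173042 and chr10:80092225-80092344 on the plus strand. The first base of the printed Mrpl52 match lies 49 bases before the start, and that of the Mrpl27 match 61 bases before it; Mrpl52 has a further ETS match just after the start. Mrpl53 has a pair of matches, 56 and 16 bases before the start. Mrps18b of the small subunit (chr20:2842886-2843005, plus strand) and Tomm7 of the outer-membrane complex (chr4:12197383-12197502, plus strand) each carry an NRF1 match that reads the same on both strands, 20 and 33 bases before the start. Mrps18b also has an ETS match that begins 3 bases before the start and runs past the printed stretch, and a YY1 match after the start.

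Over the full windows, the 80 members held these motifs in larger shares than the promoters of genes on the array did. An ETS match was present in 27 of 80 members (33.8%), against 15.2% of 11503 protein-coding genes on the array and 11.2% of all 19005 protein-coding genes. An NRF1 match was present in 12 members (15%, against 8.57% and 6.09%), and a YY1 match, AAGATGGC, in 16 (20%, against 4.76% and 3.92%). At least 1 of the 3 was present in 44 members (55.0%), 24.9% of array genes and 18.8% of all genes. Among 71 oxidative phosphorylation genes this last share was 56.3%, and among 41 cytosolic ribosomal protein genes 41.5%. The other motifs searched were CCAAT (43.8% of members, 37.3% of array genes), the GC box GGGCGG (51.2% and 58.0%), the E-box CACGTG (11.2% and 8.96%) and TATAAA (10.0% and 8.38%). The median GC content was 56.3% in members and 60% in array genes. No motif contains another; the last 3 letters of the ETS motif are the first 3 of the YY1 motif, and 0 members held both with those bases shared. A match is a run of letters, and no binding was measured.

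**Figure D1:**
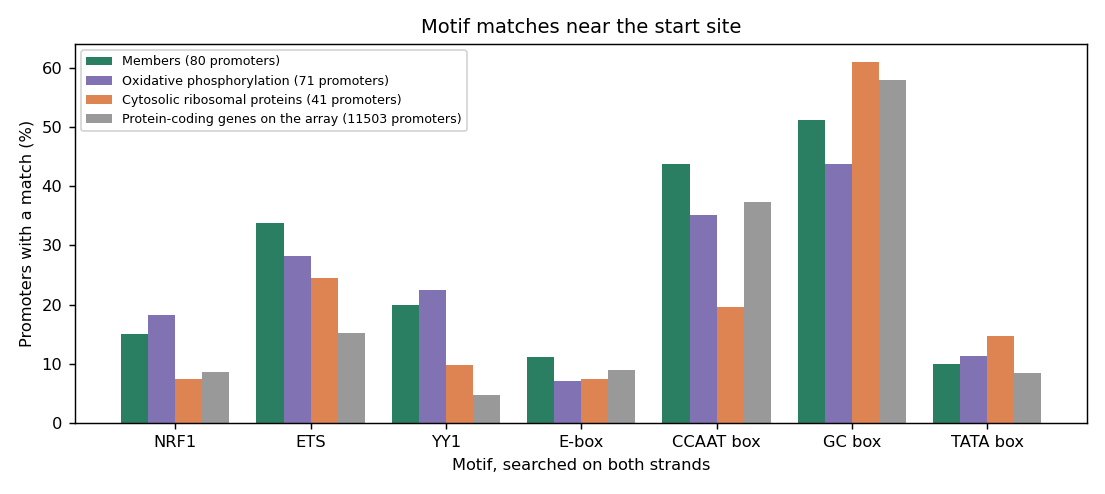
Share of promoters (%, vertical axis) with at least 1 match to each motif on either strand, in windows of 300 bases, for 80 members, 71 oxidative phosphorylation genes, 41 cytosolic ribosomal protein genes and 11503 protein-coding genes on the array. The members' ETS bar stands at 33.8% and the array's at 15.2%, while the TATA box bars stand at 10.0% and 8.38%.

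By subunit, an ETS match was in 13 of 38 large subunit promoters (34.2%), 7 of 21 small subunit promoters (33.3%) and 7 of 21 import promoters (33.3%). YY1 matches were in 8 large subunit (21.1%), 6 small subunit (28.6%) and 2 import promoters (9.52%). NRF1 matches were in 7 (18.4%), 2 (9.52%) and 3 (14.3%).

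A second feature of position was the head-to-head start, where another protein-coding gene begins on the opposite strand within 1000 bases. It applied to 22 of the 80 members (27.5%), 9.36% of array genes, 6.99% of all genes, 26.8% of oxidative phosphorylation genes and 9.76% of cytosolic ribosomal protein genes. Mrpl46 and Mrps11 are members that face each other, with 234 bases between their starts. Timm8b faces Sdhd, a subunit of respiratory complex II, across 96 bases, and Mrpl47 faces Ndufb5, a subunit of complex I, across 244 bases.

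Nearly all members were bright enough to test. A probe set was tested if its mean log2 intensity lay above the 40th percentile, near an intensity of 17.2 on the authors' scale. For mutant against wild-type hSOD1, 118 of the 129 probe sets and 95 of the 96 genes passed, and in the fits with the negative control 117 and 94. Timm8a2, a second copy of the small TIM chaperone gene Timm8a1, had its sole probe set under the filter, with 0.747 to 15.2 over transgenic pools and 18.9 for the control. Tomm40l, a relative of the TOM channel gene, passed only without the negative control. The other probe sets under the filter are further ones of Timm44, Mrpl37, Tomm34, Tomm40l, Mrps18c, Mrps2, Mrps22, Mrps26 and Mrps27. Timm23, the channel of the TIM23 complex, and Mrpl11 were not analysed here, since no probe set names either as its single gene. The 8-pool mean intensity of the 95 genes, each by its brightest probe set, ran from 18.6 to 2678 with a median of 310.2. Intensities of different probe sets depend on the probes, so no order of levels between genes was drawn.

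The tissue label was checked on marker genes. Of 14 ventral cord and motor neuron markers on the array, 10 lay above the filter, and Olig2, Foxa2, Lhx4 and Shh lay under it. The summed intensity of the ventral cord and motor neuron markers was 6576 to 8064 in mutant, 6069.6 to 7119 in wild-type and 6654 in negative control pools. Most of it in every pool was Tubb3 (2641 to 3202) and Prph (1847 to 2985), so the sum says little about the other markers. Sensory ganglion and neural crest markers, 3 of 5 above the filter with Sox10 and Prdm12 under it, summed to 670.4 to 878 in mutant, 465.9 to 610.4 in wild-type and 633.8 in negative control pools, so the transgenic groups did not overlap. Much of that sum is Isl1, which also stands among the motor neuron markers; without it the sums overlapped, at 246 to 317 in mutant, 168 to 287 in wild-type and 240.7 in control pools. Of the markers on the array, 2 of 2 dorsal cord, 2 of 4 skeletal muscle, 2 of 4 cartilage and notochord, 1 of 5 fibroblast and 1 of 4 endothelial genes lay above the filter, and 0 of 5 erythroid and 0 of 5 microglial ones. The summed intensities of each of these lists were at most 87.6 in every pool, and the transgenic groups overlapped. The 3′/5′ ratio of beta-actin probes, which rises with RNA degradation or short labelling products, was 7.31 ± 0.465 (SD, n = 4 mutant pools), 11.3 ± 5.29 (SD, n = 4 wild-type pools) and, for the control, 6.66. Replicate 2 of wild-type hSOD1 stood at 19.2, the others between 6.66 and 9.20. The exact permutation test over pools gave p = 0.0286 between the transgenic groups (two-sided), the smallest its 70 arrangements allow, and 0.0571 without that pool. The part of the marker differences in the results below was not tested. For the ratio, values without that pool or with the ratio as a covariate are given for some counts and medians, not for single genes. In such tissue, fewer cells of a type and less RNA per cell cannot be told apart.

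The first question of the design was whether mutant and wild-type hSOD1 pools differed. None of the 118 member probe sets passed the threshold, an adjusted p of 0.05 in limma adjusted by the Benjamini-Hochberg method over the 18625 tested, of which 3 passed (0.0161%). The smallest adjusted p among members in limma was 0.928. At an unadjusted p under 0.05 in limma there were 5 member probe sets (4.24%), against 4.96% of all tested. Of these, 1 was higher in mutant pools (Mrps18b; 0.847%, against 2.77% of all tested) and 4 were lower (Mrpl53, Mrpl52, Mrpl43 and Mrpl30; 3.39%, against 2.19%). With the beta-actin ratio as a covariate the count of 5 became 1, and the share of all tested probe sets was not counted there.

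The precision of this comparison was good for most members. Differences are given as log2(intensity + 8.25), mutant minus wild-type, which understates changes of dim probe sets. The 95% interval of the difference lay wholly between -0.5 and 0.5 for 86 of 95 genes and between -1 and 1 for all 95. The median half-width was 0.22, and the median spread between pools of 1 group was 0.13 (SD of log2 values), against 0.16 over all tested genes.

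Across the 95 genes the median difference was -0.01, and over all tested probe sets it was 0.01. The difference was above 0 for 39 genes (41.1%), against 54.3% of all 9869 tested genes. The large subunit had 21 of 46 above 0 (median -0.01), the small subunit 11 of 27 (-0.02), the inner-membrane import genes 3 of 13 (-0.03) and the outer-membrane import genes 4 of 9 (-0.01). Oxidative phosphorylation genes had 22 of 75 above 0 (median -0.05) and cytosolic ribosomal protein genes 19 of 45 (-0.01). The members' median rests on single pools: without replicate 3 of wild-type hSOD1 it was 0.00 with 47 of 94 genes above 0, and without replicate 2 it was -0.03 with 31 of 95. With the beta-actin ratio as a covariate it was -0.03 with 33 of 95.

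**Figure D2:**
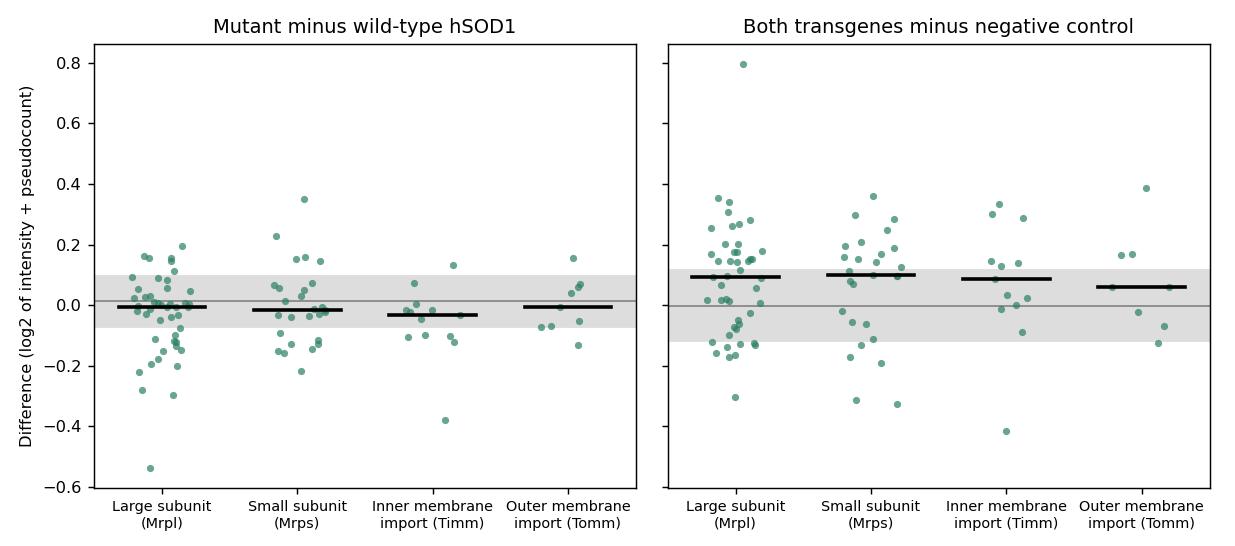
Log2 difference (vertical axis) of each member gene, 1 point per gene, by class, for mutant minus wild-type hSOD1 (left) and both transgenes minus the negative control (right). Black bars are class medians; the grey band and line give the quartiles and median of all tested genes. The class medians lie near 0 on the left, between -0.03 and -0.01, and between 0.06 and 0.10 on the right.

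The large subunit genes with the smallest unadjusted p were mostly lower in mutant pools, by small amounts. Mrpl53, of the large subunit, read 604, 571, 656 and 650.4 in mutant pools 1 to 4, 609, 793, 850.0 and 785 in wild-type pools, with 614 in the control. Wild-type replicate 1 sat among the mutant pools, and the other 3 wild-type pools were above all of them. The log2 difference was -0.28 (95% interval -0.50 to -0.06; adjusted p in limma = 0.928).

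Mrpl52, another large subunit protein, read 117, 173, 116 and 86.4 in mutant pools, 157, 259, 146 and 165 in wild-type pools, with 80.5 in the control. The groups overlapped through mutant replicate 2, and wild-type replicate 2 was far above the rest. The difference was -0.54 (-0.97 to -0.10; adjusted p in limma = 0.928). A second probe set of the same gene read 134, 125, 155 and 139 against 129, 114, 134 and 165, a difference of 0.04 (-0.24 to 0.31), so the probe sets did not give the same direction.

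Only 3 member probe sets had mutant and wild-type pools that did not overlap (2.54%, against 2.96% of all tested), and in all 3 the mutant pools were the lower ones (1.25% of all tested were so placed, and 1.71% the other way). Mrpl30 read 79.2, 82.0, 88.2 and 75.8 in mutant pools, 97.4, 124, 98.5 and 89.6 in wild-type pools, with 79.9 in the control, a difference of -0.30 (-0.56 to -0.03). The negative control lay among the mutant pools. Mrpl43 read 610.1, 627, 542 and 631 in mutant, 664, 784, 724 and 642 in wild-type and 641 in negative control pools, a difference of -0.22 (-0.41 to -0.03). Here the gap between the groups was narrow, with the negative control just inside it.

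Mrps21, a small protein of the small subunit, was the remaining gene without overlap, with 417, 432, 427 and 405 in mutant pools, 445, 450.4, 531 and 456 in wild-type pools, with 414 in the control. Its difference was -0.16 (-0.34 to 0.03). Without wild-type replicate 2, the probe sets without overlap numbered 4 of 118 (3.39%, against 4.93% of all tested).

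Mrps18b, one of 3 members named as forms of protein S18, had the smallest p of the members and the opposite direction. It read 172, 163, 146 and 135 in mutant pools, 129, 106, 103 and 139 in wild-type pools, with 147 in the control. Wild-type replicate 4 exceeded mutant replicate 4, so the groups overlapped by a pair of pools. The difference was 0.35 (0.08 to 0.62; adjusted p in limma = 0.928). The other S18 forms gave 0.01 for Mrps18a (-0.17 to 0.20) and -0.01 for Mrps18c (-0.29 to 0.27). A second, dimmer probe set of Mrps18c gave -0.19 (-0.66 to 0.29).

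Among the other members higher in mutant pools by the smallest p, Mrpl50 differed by 0.25 (-0.03 to 0.52) on 1 probe set and 0.20 (-0.05 to 0.44) on the other. Mrps6 read 1251, 1109, 1248 and 1250.3 against 1016, 1173, 1035 and 1172, a difference of 0.14 (-0.02 to 0.31), with mutant replicate 2 inside the wild-type range. Mrpl15 differed by 0.15 (-0.05 to 0.36), Mrpl57 by 0.20 (-0.07 to 0.47) and Mrps14 by 0.15 (-0.05 to 0.35). For Mrpl57 and Mrps14 a second probe set gave 0.01 and -0.03. All these intervals include 0.

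**Figure D3:**
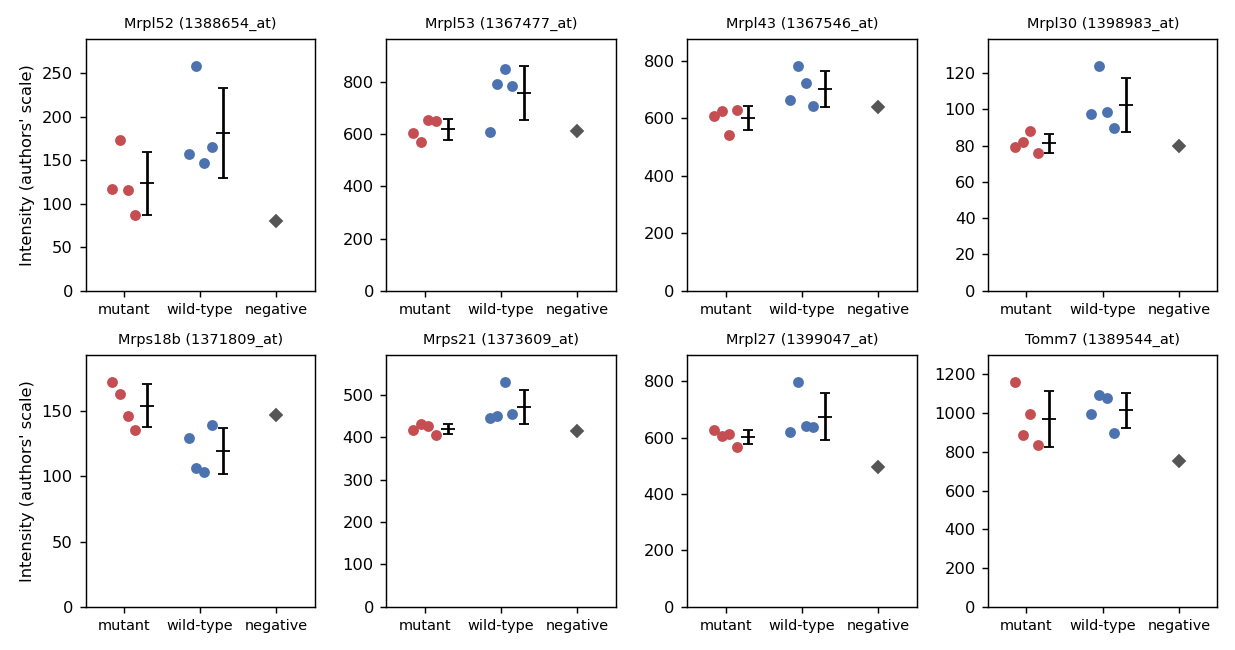
Intensity on the authors' linear scale (vertical axes, from 0) of 8 member probe sets in each pool: 4 mutant (red), 4 wild-type (blue) and 1 negative control pool (grey diamond); black marks give the mean and SD of each transgenic group. Mrpl30, Mrpl43 and Mrps21 show no overlap of the transgenic groups, and for Mrpl52, Mrpl27 and Tomm7 the negative control is the lowest point.

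Ribosomal genes with better known functions had intervals that include 0. Mrpl12, which also binds the mitochondrial RNA polymerase, read 678, 675, 586 and 587 in mutant and 622, 745, 751 and 616 in wild-type pools, a difference of -0.11 (-0.32 to 0.10). Mrpl3, at the core of the large subunit, differed by 0.08 (-0.10 to 0.27), and Mrpl58, the peptidyl-tRNA hydrolase that frees stalled ribosomes, by 0.00 (-0.24 to 0.24). In the small subunit, Mrps12 of the decoding site differed by -0.15 (-0.45 to 0.15), Mrps7 by 0.06 (-0.13 to 0.25) and Mrps16 by -0.01 (-0.22 to 0.21). None of these intervals reaches 0.5 in either direction.

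All 9 outer-membrane import genes had intervals that include 0. The receptor gene Tomm20 read 2753, 2541, 2803 and 2374 in mutant, 2635, 2762, 2707 and 2849 in wild-type and 2382 in negative control pools, a difference of -0.07 (-0.21 to 0.08). Its second probe set gave 0.07 (-0.14 to 0.28), on the other side of 0. The receptor gene Tomm70, which takes up carrier proteins with cytosolic chaperones, read 1744 to 1881 in mutant and 1742 to 1819 in wild-type pools (0.04, -0.09 to 0.17). The central receptor gene Tomm22 differed by 0.07 (-0.08 to 0.23) and the channel gene Tomm40 by 0.16 (-0.10 to 0.41).

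The small TOM subunits gave -0.05 for Tomm5 (-0.25 to 0.15), -0.01 for Tomm6 (-0.21 to 0.20) and -0.07 for Tomm7 (-0.30 to 0.15). Tomm34, a cytosolic co-chaperone despite its name, gave -0.13 (-0.42 to 0.16). The dim Tomm40l gave 0.06 with a wide interval, -0.60 to 0.72.

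In the inner membrane, Timm44, which tethers the import motor to the TIM23 channel, had the largest difference, on a dim probe set. It read 16.7, 22.7, 18.4 and 12.7 in mutant, 16.9, 35.0, 28.2 and 22.7 in wild-type and 20.3 in negative control pools. The groups overlapped, and the difference was -0.38 (-0.81 to 0.05; adjusted p in limma = 0.928). The other TIM23 genes gave 0.07 for Timm17a (-0.14 to 0.28), 0.13 for Timm17b (-0.26 to 0.53), -0.02 for Timm21 (-0.23 to 0.19) and -0.01 for the receptor Timm50 (-0.24 to 0.21).

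The carrier translocase gene Timm22 differed by 0.00 (-0.23 to 0.24) and its partner Timm29 by -0.02 (-0.18 to 0.15). The small TIM chaperones, which carry hydrophobic proteins across the space between the membranes, all had differences just under 0. They were -0.12 for Timm9, -0.11 for Timm10, -0.03 for Timm10b, -0.05 for Timm8a1, -0.10 for Timm8b and -0.10 for Timm13, all with intervals that include 0. Timm8b, for example, read 2343, 2409, 2012 and 1946 in mutant pools and 2127, 2656, 2529 and 2053 in wild-type pools, with wide overlap.

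**Figure D4:**
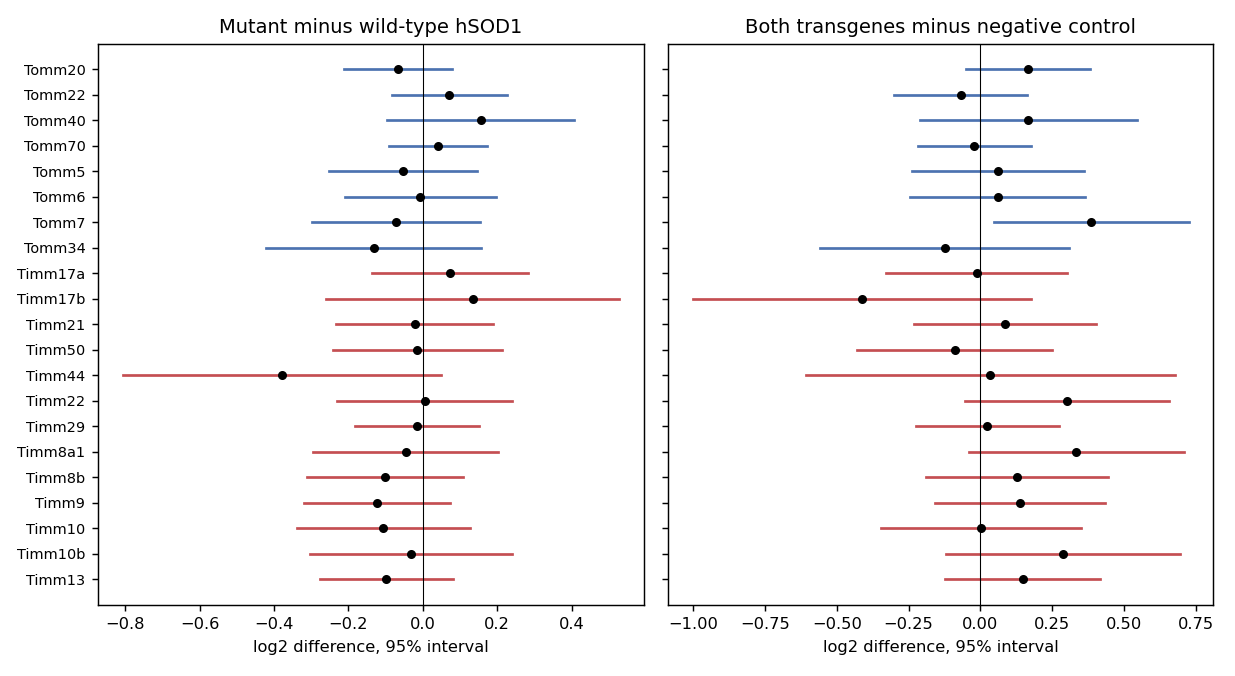
Log2 difference with its 95% interval (horizontal axes) for 21 import genes, outer-membrane genes in blue and inner-membrane genes in red, for mutant minus wild-type hSOD1 (left) and both transgenes minus the negative control (right). All 21 intervals on the left include 0, from -0.38 for Timm44 to 0.16 for Tomm40, and on the right only that of Tomm7 does not.

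The second question was how pools with either transgene differed from the negative control. With 1 negative control pool, the limma fit assumes that it would vary like the transgenic pools, and any peculiarity of that pool or array cannot be told apart from the absence of a transgene. No member passed the threshold among 117 tested, as was so for all 18625 probe sets (0%). At an unadjusted p under 0.05 in limma there were 6 members (5.13%, against 3.12% of all tested). Of these, 5 were higher in transgenic pools (1.8% of all tested) and 1 lower (1.32%).

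The members leaned to higher values in the transgenic pools. The difference, transgenic minus negative control, was above 0 for 64 of 94 genes (68.1%), against 49.1% of all 9868 tested genes. The median was 0.09, while over all tested probe sets it was -0.02. Medians were 0.09 for the large subunit (31 of 46 above 0), 0.10 for the small subunit (18 of 27), 0.09 for inner-membrane import (10 of 13) and 0.06 for outer-membrane import (5 of 8). Cytosolic ribosomal protein genes gave 0.12 (38 of 45) and oxidative phosphorylation genes 0.10 (60 of 75), both on the same side as the members. With the beta-actin ratio as a covariate the members' median was 0.066, with 62 of 94 genes above 0. With the le2 tag as a covariate it was 0.065, with 60 of 94. The share of all tested genes above 0 was not counted in these fits.

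Each transgene was also set against the same negative control, which both comparisons share. For mutant pools the median was 0.06 with 63 of 94 genes above 0 (67%, against 51% of all tested), and 0 members passed the threshold (0% of all tested). At an unadjusted p under 0.05 in limma there was 1 (2.29% of all tested), which was higher (1.34%), and 0 were lower (0.956%). For wild-type pools the median was 0.12 with 63 of 94 above 0 (67%, against 47.8%), and 0 passed (0%). At an unadjusted p under 0.05 in limma there were 7 (4.28%), of which 6 were higher (2.27%) and 1 lower (2.01%). With the beta-actin ratio as a covariate the wild-type median was 0.08.

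The negative control was the lowest of the 9 pools for 26 of 117 member probe sets (22.2%, against 9.19% of all tested) and the highest for 9 (7.69%, against 10.5%). Counted by gene, it was the lowest for 21 of 94 members (22.3%), 10.7% of all tested genes, 37.8% of cytosolic ribosomal protein genes and 22.7% of oxidative phosphorylation genes. The small subunit had 8 of 27 such genes, the large subunit 9 of 46, inner-membrane import 3 of 13 and outer-membrane import 1 of 8. Without wild-type replicate 2 the count was 26 of 94 (27.7%, against 13.5% of all tested genes).

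The members' mean departure from each gene's 9-array mean was -0.07 in the negative control, 0.03, 0.03, -0.04 and -0.04 in mutant replicates 1 to 4, and -0.02, 0.03, 0.08 and -0.01 in wild-type replicates 1 to 4. Wild-type replicate 3 was about as far from 0 in the other direction, and by the median over genes the values were -0.08 in the control and 0.08 in that pool. Oxidative phosphorylation genes spanned -0.14 in mutant replicate 4 to 0.12 in wild-type replicate 3, with -0.10 in the negative control. Cytosolic ribosomal protein genes stood at -0.10 in both mutant replicate 4 and the negative control.

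**Figure D5:**
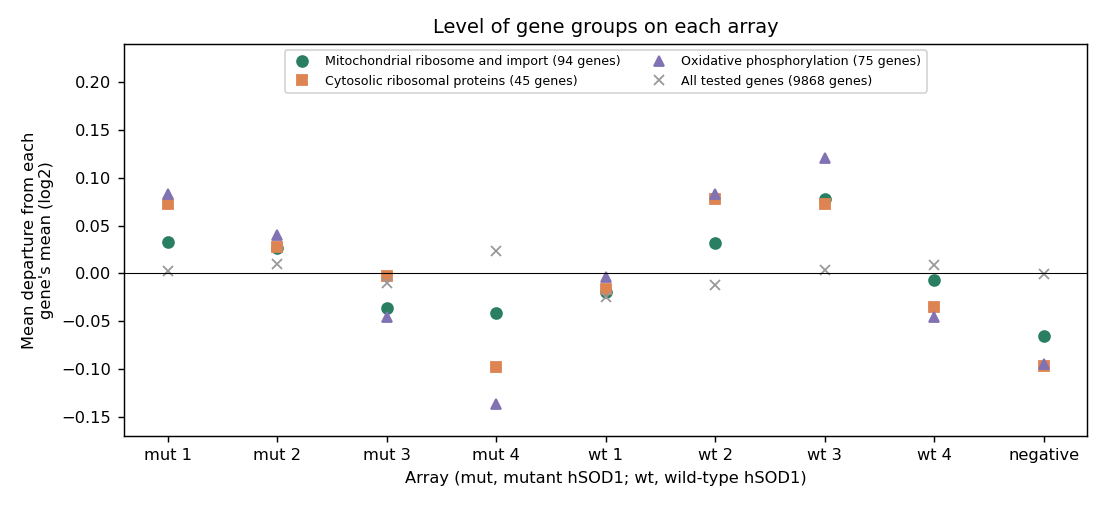
Mean departure of each gene group from its genes' 9-array means (log2, vertical axis) on each array (horizontal axis): 94 member genes, 45 cytosolic ribosomal protein genes, 75 oxidative phosphorylation genes and all 9868 tested genes. The members lie between -0.07 in the negative control and 0.08 in wild-type replicate 3, and the other groups of this kind move to the same side on most arrays.

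Among single ribosomal genes, Mrpl52 gave the largest difference from the negative control, 0.79 (0.14 to 1.45; adjusted p in limma = 1.0), on the probe set given above, where the control's 80.5 was under all 8 transgenic pools. Its other probe set gave 0.15 (-0.26 to 0.56). Mrpl27, a large subunit protein near the site of peptide bond formation, read 627, 608, 613 and 568 in mutant, 621, 798, 640.4 and 639 in wild-type and 496 in negative control pools. The control was lowest, and the difference was 0.35 (0.05 to 0.65; adjusted p in limma = 1.0).

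Further large and small subunit genes had the negative control below every transgenic pool. Mrpl18, which also takes part in bringing 5S rRNA into mitochondria, read 441 to 576 in the 8 transgenic pools and 419 in the control (0.31, -0.00 to 0.62). On 1 of its 2 probe sets Mrps9 read 118 to 164 against 100.5 (0.40, 0.02 to 0.79). The other probe set of Mrps9 gave 0.14 (-0.21 to 0.50), with the control inside the transgenic range. Mrps35 read 207 to 304 against 196 (0.36, -0.03 to 0.75), and Mrps30 read 377 to 531 against 368 (0.30, -0.07 to 0.67).

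Mrpl51 showed how far probe sets of 1 gene can differ. Of its 4 probe sets, 1 read 43.8 to 68.8 in transgenic pools and 35.6 in the control, a difference of 0.52 (0.02 to 1.03), while the other 3 gave -0.07, 0.12 and 0.07. Of 21 genes with more than 1 probe set above the filter, the direction against the negative control differed between probe sets for 11, and between mutant and wild-type pools for 10.

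Other ribosomal genes had the negative control at the top. Mrps14, of the head of the small subunit, read 714, 603, 649.6 and 634 in mutant, 601, 534, 545 and 663 in wild-type and 766 in negative control pools. The difference was -0.31 (-0.61 to -0.02; adjusted p in limma = 1.0), and a second probe set gave 0.09 (-0.31 to 0.50). Mrps31 read 115 to 163 against 172 (-0.33, -0.73 to 0.08), Mrps6 1016 to 1251 against 1318 (-0.19, -0.45 to 0.06), and Mrpl57 119 to 177 against 187 (-0.30, -0.71 to 0.10). The brighter probe set of Mrpl57 gave 0.15 (-0.26 to 0.56), with the control's 231 inside the range of the other pools. Mrpl22, with 151 to 215 against 213, lay inside the transgenic range (-0.30, -0.71 to 0.11).

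Among import genes, Tomm7, a small subunit that modulates the stability of the TOM complex and the PINK1 pathway of mitochondrial quality control, read 1161, 887, 997 and 838 in mutant, 996, 1092, 1079.8 and 897 in wild-type and 754 in negative control pools. All 8 transgenic pools exceeded the control, and the difference was 0.39 (0.05 to 0.73; adjusted p in limma = 1.0). The other TOM genes gave 0.17 for Tomm20 (-0.05 to 0.38), 0.17 for Tomm40 (-0.21 to 0.55), -0.07 for Tomm22 (-0.30 to 0.16) and -0.02 for Tomm70 (-0.22 to 0.18).

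In the inner membrane, the control lay below all transgenic pools for Timm22 (235 to 305 against 216; 0.30, -0.05 to 0.66), Timm8a1 (162 to 228 against 144; 0.33, -0.04 to 0.71) and Timm10b (74.9 to 103 against 71.9; 0.29, -0.12 to 0.70). Timm8a1 is the rat counterpart of the gene lost in human deafness-dystonia syndrome. Second probe sets of Timm22, Timm8a1 and Timm10b gave -0.03, 0.15 and -0.28, each with the control inside the transgenic range. Timm17b read 85.1 to 163 against 152, with the control inside the transgenic range (-0.41, -1.0 to 0.18).

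Genes that work with the members were counted from lists of their partners, and none passed the threshold in either comparison. Mutant pools were higher for 10 of 16 mitochondrial translation factors, 14 of 25 assembly and mitochondrial rRNA genes, 8 of 13 mitochondrial aminoacyl-tRNA synthetases, 10 of 24 import partners and 3 of 8 regulators of mitochondrial biogenesis. Against the negative control, transgenic pools were higher for 8, 15, 6, 16 and 4 of the same. Over all tested genes the share higher was 54.3% for mutant against wild-type and 49.1% against the control. Nsun4, which methylates mitochondrial rRNA and joins the subunits during assembly, read 71, 61.7, 68.7 and 66.1 in mutant, 56.3, 45.2, 35.7 and 57.0 in wild-type and 82.2 in negative control pools. The transgenic groups did not overlap, which held for 2.96% of all tested probe sets. The differences were 0.42 (0.10 to 0.74) between these groups and -0.48 (-0.95 to -0.00) against the control.

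Noa1, a GTPase needed to assemble the small subunit, read 78.4, 89.4, 64.6 and 119 in mutant and 98.3, 143, 149.9 and 116 in wild-type pools, with overlap (-0.50, -0.88 to -0.13). Lonp1, a protease of the matrix, read 204 to 234 in mutant and 239 to 285 in wild-type pools (-0.21, -0.41 to 0.00). These groups did not overlap, as for 2.96% of all tested probe sets. Mipep, which trims imported proteins, differed by 0.30 (0.04 to 0.57) between the transgenes, and the control's 166 lay above all 8 transgenic pools (-0.40, -0.79 to -0.01). Pam16, part of the import motor, read 409.7 to 536 in the transgenic pools, and its difference from the control was 0.34 (0.05 to 0.64). Of the listed regulators of biogenesis, Yy1 and Gabpb1, a GABP subunit, had the smallest p between the transgenes. Yy1 differed by -0.22 (-0.44 to 0.01) and Gabpb1 by 0.17 (-0.01 to 0.34). In limma the adjusted p of these mutant against wild-type differences was 0.928 each. Gabpa, another GABP subunit, differed by 0.09 (-0.20 to 0.37) between the transgenes. Against the control Gabpa differed by -0.33 (-0.75 to 0.10), and the control's 123 lay above all 8 transgenic pools (78.0 to 110).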

How the data were processed

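The authors deposited 1 linear intensity per probe set and array; the sources used here do not name their software. The mean after trimming 2% at either end was 150.05 on every array, which shows that the arrays had been scaled, and array medians lay between 31.0 and 33.9, so no further normalization was added. Arrays have no read depth, and their number limits the precision. Of 31099 probe sets, 57 controls were left out of the tests. The platform annotation gave 1 symbol to 20826 of the rest, several to 436 and none to 9780; 1 probe set that lists a member symbol with others is no member.

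Values were log2(intensity + 8.25), with the 25th percentile as pseudocount. Probe sets at or under the 40th percentile of mean log2 were dropped, leaving 18625. The model was lmFit and eBayes (trend on) of limma 3.58.1, R 4.3.3, with p-values adjusted by Benjamini and Hochberg's method across every probe set tested; adjusted values under 0.05 passed. Mutant and wild-type pools were compared on 8 arrays, and the control was compared in a fit of 9. The brightest probe set stood for a gene in counts by gene. The fits were run on simulated data with known differences and independent noise in each probe set. That run cannot test the use of a single control pool or shifts shared by a whole array. Rules set for naming took fixed core genes and the 6 members with the smallest p in each direction of each comparison. They also took genes whose probe sets differ in direction, and 2 genes of each partner list per comparison. Not all of these are described. No differences are given for Mrpl10, Mrpl37, Mrpl40, Mrps15 and Mrps27, whose probe sets differ in direction. The partner genes Gatc, Mrrf, Gatb, Slirp, Gars1, Fars2, Rars2 and Mrm3 are left out. Mrps30, Mrps35, Mrpl58, Mrps18a and Mrps18c were added after their values were seen. Members and lists were chosen with earlier results of these data known. Alternatives changed scaling, pseudocount, filter, variance model, covariates and pools left out; the counts without wild-type replicate 2 of groups without overlap and of the control's place, and the alternatives of the median of each transgene against the control, were chosen after seeing the data. Promoters came from RefSeq (GRCr8).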

Additional observations from a re-analysis of the deposited data

Results flagged for a closer look

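In groups of 4 pools, the highest or lowest pool was flagged where its gap to the nearest other pool, divided by the range of the group, exceeded Dixon's 95% limit. Of 132 groups examined, 10 were flagged; chance alone flags about 1 in 20 groups.

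Among mutant pools, replicate 2 was the low one for Mrpl37 (16.93 on its dim probe set, against 30.25 in the nearest pool) and for Mrps6 (1109, against 1248). Replicate 1 was the high one for Mrps7 (349.2, against 317), and replicate 4 the low one for Timm8a1 (169.4, against 183.4). These genes had no difference past the threshold with every pool kept.

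Among wild-type pools, replicate 2 was the high one for Mrpl27 (797.8, against 640.4) and Mrpl52 (258.5, against 164.8), and its beta-actin 3′/5′ ratio stood apart as well (19.18, against 9.204). Replicate 3 was the high one for Mrps21 (530.6, against 455.8) and for 1 probe set of Mrpl51 (674.8, against 572.7), and replicate 4 for a dim probe set of Mrpl10 (29.1, against 22.91). Whether the high ratio of replicate 2 bears on its high values was not tested.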

How the results depend on the processing

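No member passed the threshold in limma under any of 23 alternatives of mutant against wild-type hSOD1 or 21 of each comparison with the negative control. At an unadjusted p under 0.05 in limma the member count for mutant against wild-type ran from 1 (beta-actin ratio as covariate) to 10 (without wild-type replicate 4). For both transgenes against the control it ran from 3 to 10. The share of all tested probe sets was not counted under the alternatives, so these counts cannot be read as particular to the members. Of 120 named differences, 45 changed sign under some alternative. The median of the members' differences moved by less than 0.042, the SD between pools of their median level, under all of these except 1: for wild-type hSOD1 against the control it was 0.0767 with the beta-actin ratio as covariate, in place of 0.124, and the cause was not tested. The scaling alternatives moved the median of all tested probe sets by less than 0.1. With arrays centred on their medians, 31 of 95 genes were above 0 for mutant against wild-type and 68 of 94 for both transgenes against the control. The beta-actin ratio difference, mutant minus wild-type, was between -5.0 and -1.33 when 1 pool was left out, lowest without wild-type replicate 4 and nearest 0 without wild-type replicate 2, with exact permutation p from 0.0286 to 0.2.

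Replicate numbers were tried as a block. Same-numbered pools correlated at 0.12, 0.09, -0.08 and 0.20 (replicates 1 to 4) in their departures from the group means. Only those numbered 1 and 4 correlated best with their own number. These values cannot tell whether same-numbered pools shared a batch, and both replicate 1 pools lack the le2 tag. With the replicate block, 0 members passed, and the smallest adjusted p in limma was 0.331, in place of 0.928 without it. In that fit 5 members had an unadjusted p under 0.05 in limma, and the share of all tested probe sets was not counted.

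Precision is limited by the number of pools, above all by the single negative control, and dim probe sets such as those of Timm44 and Tomm40l have wide intervals.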

Other observations

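Head-to-head neighbours were read beside the members they face. Of 21 such pairs, 17 had both genes tested, and 0 partners passed the threshold in limma in either comparison. Within the pair of members, Mrpl46 and Mrps11 differed between mutant and wild-type pools by 0.02 and 0.03 on the log2 scale, and from the negative control by -0.12 and 0.09. Timm8b and its partner Sdhd differed by -0.10 and 0.15 between the transgenes, and by 0.13 and 0.17 from the control. For Mrpl47 and Ndufb5 the differences between the transgenes were -0.15 and -0.13, and for Mrpl32 and the proteasome gene Psma2 0.16 and -0.02. For Mrps18c and Helq, a DNA helicase gene 72 bases away, they were -0.01 and -0.35, and a second probe set of Mrps18c gave -0.19.

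Tars2, the mitochondrial threonyl-tRNA synthetase, had the lowest unadjusted p against the negative control among the partner genes named. It read 29.5, 17.1, 24.4 and 24.6 in mutant and 14.9, 17.3, 16.4 and 24.7 in wild-type pools and 4.06 in the control, so all 8 transgenic pools were above it. The control lay under the pseudocount of 8.25 and the transgenic pools near the filter, so no size of difference is given; the adjusted p in limma was 1.0. This was not the brightest probe set of Tars2. By the brightest probe set of each gene, the differences of 13 listed synthetases from the control ran from -0.35 to 0.28. Of these, 6 were higher and 7 lower in transgenic pools. Myc, a regulator of biogenesis genes, read 29.7 to 49.6 in transgenic pools and differed from the control by 0.55 (0.02 to 1.09).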
